A study of Mus musculus with 6 samples.

Results

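The genes described here are 43 interferon-stimulated genes and RNA sensors, taken from a list of names, in hearts of mice that carry altered Myh6 alleles. The gene tables held 42 of the 43 by symbol among 29385 genes. Trex1, which encodes a DNA exonuclease, is not analysed here. All 42 passed the filter on low counts, as did 16804 genes in all. Myh6 codes for alpha myosin heavy chain, the motor of the adult mouse ventricle. Every sample carried the RH allele, and the study had 3 groups of 2 libraries: Myh6RH/+ given vehicle, Myh6RH/RQ given vehicle, and Myh6RH/RQ given AAV-hpCas13d, an adeno-associated virus labelled as carrying a Cas13d enzyme, which cuts RNA at sites chosen by a guide RNA. Hearts were collected 12 months after a dose given to newborns. The groups are called RH/+ vehicle, RH/RQ vehicle and treated RH/RQ below. The labels do not spell out the RH and RQ alleles, the virus serotype, promoter or guide, or whether libraries came from separate animals, so that p-values measure the spread between these libraries, which may be technical.

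Cells sense foreign or misplaced RNA with helicases such as RIG-I (Ddx58) and MDA5 (Ifih1), which signal through mitochondria to switch on interferon genes. Secreted interferons bind receptors on the same and neighbouring cells, and the STAT and IRF transcription factors then turn on a large set of genes that bind viral RNA, block translation, modify proteins with the ubiquitin-like protein ISG15, or attack intracellular parasites. Type I interferons act mainly through the interferon-stimulated response element. Interferon gamma acts mainly through the gamma-activated site and is the stronger inducer of the guanylate-binding and immunity-related GTPases. Many of these genes have a basal level in healthy tissue, the heart included.

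Promoter sequences are shown for 7 members that hold core letters of the interferon-stimulated response element, GAAANNGAAA, as did 18 of the 32 genes with a promoter window. Of the 7, 3 changed in the comparisons given further on: Rsad2, Gbp3 and Igtp. RefSeq promoter windows on GRCm38.p6, each from 250 bases before to 50 bases after a transcription start, were at hand for 32 of the 43 listed genes. The letters GAAANNGAAA, searched on both strands with overlapping matches allowed, were present in 18 of those 32 genes (56.2%), against 3.99% of 27025 genes with such windows. The letters TTCNNNGAA, the core of the gamma-activated site, were present in 8 of the 32 (25.0%), against 9.55% of all. A match is a description of the letters only. Capitals mark each match to GAAANNGAAA, which reads TTTCNNTTTC where the match lies on the other strand. Every stretch runs 5′ to 3′ on the strand of the gene and ends before the start site of its RefSeq window. The Gbp2 and Gbp3 stretches run past the starts of these genes in GENCODE M21, at 142620602 and 142560026. A second RefSeq window of Gbp3 held 0 matches.
Isg15, chr4:156200855-156200916, minus strand: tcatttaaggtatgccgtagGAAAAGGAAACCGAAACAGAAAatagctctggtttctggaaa
Ifit1, chr19:34640765-34640833, plus strand: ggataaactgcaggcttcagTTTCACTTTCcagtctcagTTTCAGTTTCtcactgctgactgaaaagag
Ifit3, chr19:34583353-34583436, plus strand: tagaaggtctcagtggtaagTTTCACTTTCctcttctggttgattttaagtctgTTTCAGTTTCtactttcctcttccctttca
Rsad2, chr12:26456543-26456592, minus strand: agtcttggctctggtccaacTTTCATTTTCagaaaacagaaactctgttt
Gbp2, chr3:142620584-142620633, plus strand: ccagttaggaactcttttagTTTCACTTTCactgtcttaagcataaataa
Gbp3, chr3:142559979-142560034, plus strand: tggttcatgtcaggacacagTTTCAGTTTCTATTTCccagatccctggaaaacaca
Igtp, chr11:58199502-58199551, plus strand: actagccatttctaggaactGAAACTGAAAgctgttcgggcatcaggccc

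Isg15 held 3 overlapping matches in a row, Gbp3 held 2 that overlap, and Ifit1 and Ifit3 each held 2 that are apart. The Ifit3 stretch is repeated at Ifit3b, chr19:34607749-34607832 on the plus strand, with 0 mismatches over 84 bases, so these neighbouring genes share their promoter letters as well as much of their transcript. Matches were found in 5 of the 5 guanylate-binding and immunity-related GTPase genes with a window and in 2 of the 2 RNA sensors with a window. They were found in 0 of the 3 genes with a window in the group of other induced proteins, which includes Lgals3bp. Of the 9 members that passed the test in any comparison, 5 had a window, and 3 of these held a match (Rsad2, Gbp3 and Igtp), while Oasl2 and Lgals3bp did not.

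The libraries held between 36269261 and 51017058 gene reads, and 3 reads, the limit that a count of 0 allows, corresponded to between 0.0588 and 0.0827 CPM (gene reads scaled to 1000000 per library). These limits hold for counting error alone. Mitochondrial transcripts took 17.16% to 22.38% of the reads. The tissue label fitted its markers, since 5 cardiomyocyte markers summed to between 31000 and 38100 CPM in every library. Gene counts do not separate the Myh6 alleles and give no check of the genotype. The sex-linked transcripts differed between the groups: Xist was at 265.2 to 326 CPM in the RH/+ vehicle and treated RH/RQ libraries and at 0.274 and 0.0516 CPM in both RH/RQ vehicle libraries, where Ddx3y was at 85.2 CPM against 0 reads in the other 4 libraries. Wherever RH/RQ vehicle hearts enter a comparison, genotype or treatment and the sex-linked pattern cannot be told apart. Libraries of treated RH/RQ and RH/+ vehicle hearts share the pattern. In bulk tissue, fewer cells of a type and less RNA per cell cannot be told apart either.

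All 42 members were detected in every library. Per kilobase of exon, the mean over the 6 libraries was over 1 RPKM for 35 members and at most 1 for 7, with a median of 3.98 RPKM. Ifi27, a small interferon-induced membrane protein, had the highest length-scaled level at 36.1 RPKM, followed by Bst2, the membrane protein tetherin that holds budding virus particles at the cell surface, at 32.4 RPKM. Lgals3bp, a secreted galectin-binding glycoprotein, was at 13.0 RPKM and Igtp, an immunity-related GTPase, at 10.9 RPKM. The lowest was Oas3, an oligoadenylate synthetase, at 0.071 RPKM and 8 to 36 reads per library, followed by the dynamin-like GTPase Mx1 at 0.327 RPKM and the Z-nucleic acid sensor Zbp1 at 0.545 RPKM. Over the 6 libraries the highest CPM was under 1.5 times the lowest for 21 of the 42 members and over 2 times the lowest for 6. Cmpk2 and Trim30a spanned 1.13-fold, Parp14 1.14-fold and Dtx3l 1.18-fold.

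**Figure D1:**
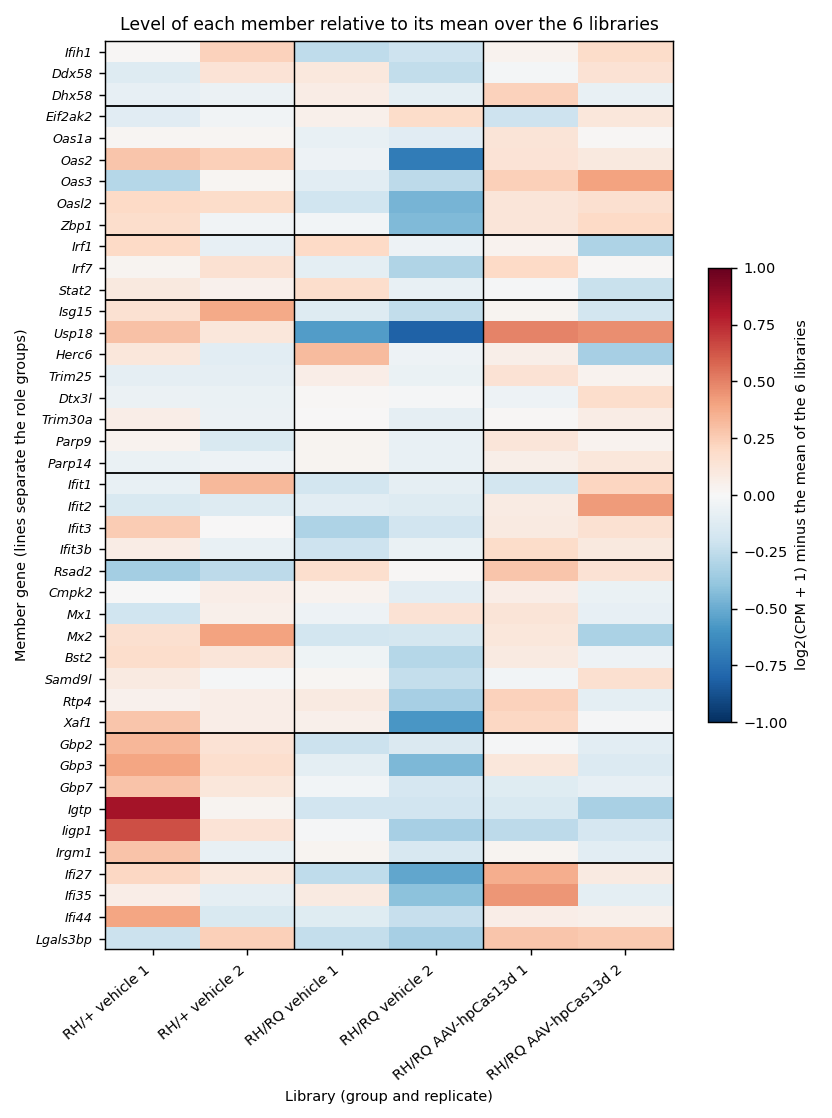
Level of each of the 42 members in each of the 6 libraries, as log2(CPM + 1) minus the gene's mean over the 6 libraries (red above, blue below the mean; horizontal lines separate role groups, vertical lines the 3 groups of 2 libraries). The second RH/RQ vehicle library was the lowest of the 6 for 24 members, and the first RH/+ vehicle library was the highest for all 6 guanylate-binding and immunity-related GTPases.

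RH/RQ vehicle hearts were set beside RH/+ vehicle hearts to see how the RQ allele went with the interferon genes. Usp18, the isopeptidase that removes ISG15, fell by 51.5% in mean CPM. Ifi27, Oas2, Oasl2, Gbp3, Igtp and Iigp1 fell as well, from Ifi27, which fell by 31.5%, to Igtp, which fell by 38.8%. Rsad2 rose by 32.4%. By limma on log2(CPM + 1), with adjustment over all 16804 genes and calls at an adjusted p under 0.05, 7 of the 42 members were lower (1.51% of all tested genes were called lower) and 1 was higher (3.48% of all tested genes). The other 34 did not pass. Log2 fold changes were below 0 for 31 members, against 42.2% of all tested genes, and the median was -0.18 against 0.04 over all tested genes. Both RH/RQ vehicle libraries were lower than both RH/+ vehicle libraries for 19 members (18.5% of all tested genes) and higher for 4 (30.8% of all tested genes). An unadjusted p under 0.05 was reached by 16 members that were lower and 1 that was higher, against 17.1% of all tested genes in either direction.

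**Figure D2:**
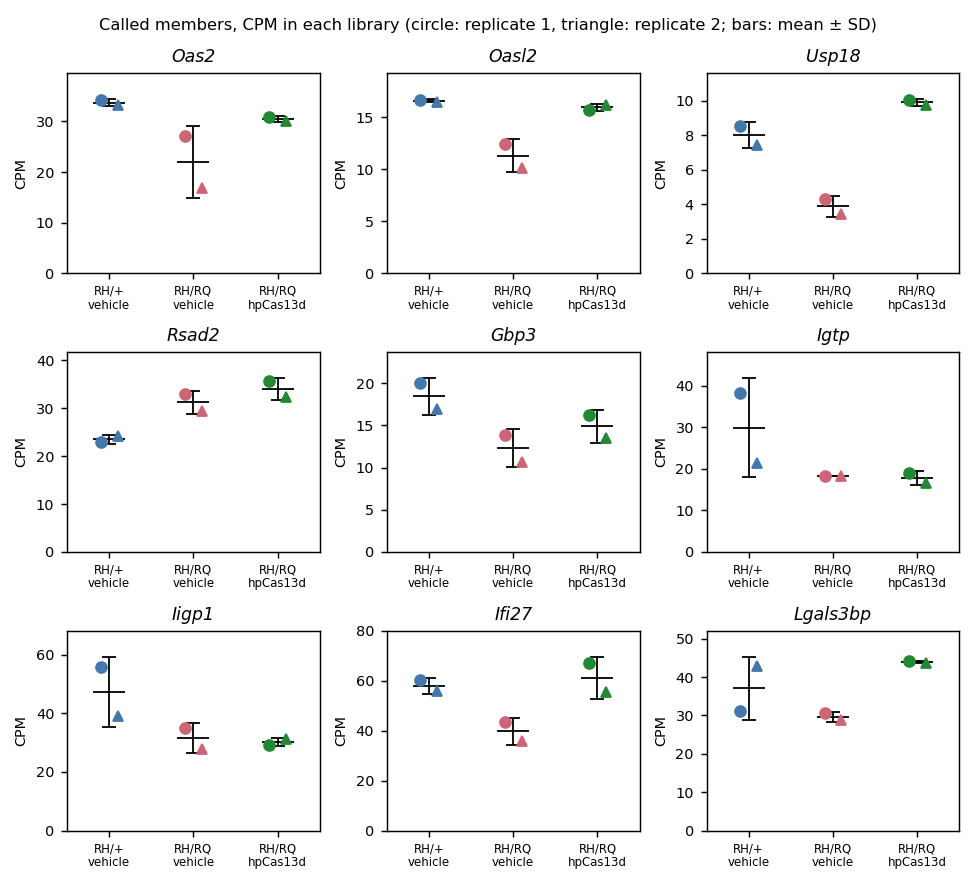
CPM of the 9 members called in any comparison, with circles for replicate 1 and triangles for replicate 2 of each group and bars for the mean ± SD (n = 2); each panel's axis starts at 0. Usp18 shows the groups apart, with RH/RQ vehicle libraries at 4.31 and 3.45 CPM below all 4 others, and Igtp shows 1 RH/+ vehicle library at 38.4 CPM above the other 5.

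Among the double-stranded RNA and nucleic acid effectors, 2 of 6 fell. Oas2 makes the oligoadenylates that activate RNase L (chromosome 5, 120730333 to 120749853, minus strand, GENCODE M21 on GRCm38), and it was at 34.2 and 33.2 CPM in RH/+ vehicle, 27.1 and 16.9 CPM in RH/RQ vehicle and 30.8 and 30.1 CPM in treated RH/RQ hearts. The RH/RQ vehicle libraries were the lowest, did not overlap either other group and differed from each other by 0.65 on the log2 scale, the second widest gap between libraries of a group among the members. Its log2 fold change was -0.63 (limma, SE 0.15, adjusted p = 0.0107). Oasl2, an oligoadenylate synthetase-like protein (chromosome 5, 114896936 to 114912234, plus strand), was at 16.7 and 16.5 CPM in RH/+ vehicle, 12.4 and 10.2 CPM in RH/RQ vehicle and 15.7 and 16.2 CPM in treated RH/RQ libraries. It too was lowest in both RH/RQ vehicle libraries, with a log2 fold change of -0.53 (limma, SE 0.14, adjusted p = 0.0232). Eif2ak2, the kinase PKR that stops translation, had a log2 fold change of 0.19 (limma adjusted p = 0.551), and Oas1a, Oas3 and Zbp1 lay between -0.30 and -0.05. Reads of Oas1a are uncertain, since 57.6% of its 50-base words also occur in Oas1g.

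In the ISG15 system, Usp18 stood out from the ubiquitin ligases. Usp18 removes ISG15 from proteins and holds down signalling at the type I interferon receptor (chromosome 6, 121245906 to 121270917, plus strand). It was at 8.56 and 7.47 CPM in RH/+ vehicle, 4.31 and 3.45 CPM in RH/RQ vehicle and 10.04 and 9.78 CPM in treated RH/RQ libraries. No group overlapped another, and the RH/RQ vehicle mean of 3.88 ± 0.607 CPM lay below the RH/+ vehicle mean of 8.01 ± 0.772 CPM (SD, n = 2 each). Usp18 fell by 0.89 on the log2 scale (limma, SE 0.16, adjusted p = 0.00144). Isg15 itself was at 6.67 and 7.99 CPM in RH/+ vehicle, 5.33 and 4.82 CPM in RH/RQ vehicle and 6.07 and 5.09 CPM in treated RH/RQ libraries, and its log2 fold change of -0.45 did not pass (limma, SE 0.17, adjusted p = 0.143). The ligases did not pass. Trim25, which ubiquitinates RIG-I and has the highest length-scaled level of this group at 8.91 RPKM, was at 48.0 and 47.9 CPM in RH/+ vehicle, 53.6 and 48.9 CPM in RH/RQ vehicle and 56.5 and 52.6 CPM in treated RH/RQ libraries, with a log2 fold change of 0.09 (limma, SE 0.10, adjusted p = 0.702).

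Of the antiviral effectors, limma called 1 of 8, Rsad2, which was higher. Which genes of this group were called changed with the tool: edgeR called 1, Bst2, which was lower, and DESeq2 called 2, Rsad2 higher and Bst2 lower. Rsad2 encodes viperin, an enzyme that turns CTP into a chain terminator of viral RNA synthesis (chromosome 12, 26442746 to 26456452, minus strand). It was at 22.9 and 24.2 CPM in RH/+ vehicle, 33.0 and 29.5 CPM in RH/RQ vehicle and 35.7 and 32.4 CPM in treated RH/RQ libraries. Both RH/RQ groups lay above RH/+ vehicle and overlapped each other. Its log2 fold change was 0.39 (limma, SE 0.11, adjusted p = 0.0459). Cmpk2, the nucleotide kinase whose gene starts 12.8 kb away on the opposite strand and which supplies CTP, lay between 12.9 and 14.6 CPM in all 6 libraries, with a log2 fold change of -0.07 (limma, SE 0.13, adjusted p = 0.859). Bst2, the member of this group with the highest length-scaled level, was at 32.9 and 31.6 CPM in RH/+ vehicle, 28.2 and 23.6 CPM in RH/RQ vehicle and 31.0 and 28.1 CPM in treated RH/RQ libraries. Its log2 fold change of -0.31 did not pass (limma, SE 0.12, adjusted p = 0.142). Xaf1, which binds the apoptosis inhibitor XIAP, had the third widest gap between libraries of a group: it was at 18.4 and 15.7 CPM in RH/+ vehicle, 15.5 and 9.64 CPM in RH/RQ vehicle and 17.4 and 14.8 CPM in treated RH/RQ libraries. The log2 fold change of Xaf1 was -0.44 (limma, SE 0.17, adjusted p = 0.144).

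The guanylate-binding and immunity-related GTPases, which gather on membranes around intracellular parasites, were the group with the lowest median, -0.49. Log2 fold changes were below 0 for 6 of 6, and 3 of 6 were called lower (1.51% of all tested genes). Igtp was at 38.4 and 21.5 CPM in RH/+ vehicle, 18.3 and 18.3 CPM in RH/RQ vehicle and 18.9 and 16.6 CPM in treated RH/RQ libraries (chromosome 11, 58199556 to 58207591, plus strand). Iigp1 was at 55.8 and 39.0 CPM in RH/+ vehicle, 35.1 and 27.9 CPM in RH/RQ vehicle and 29.3 and 31.3 CPM in treated RH/RQ libraries. For both genes the first RH/+ vehicle library stood above the other 5, and for Igtp the gap between the RH/+ vehicle libraries, 0.81 on the log2 scale, was the widest of any member in any group. The log2 fold changes were -0.62 for Igtp (limma, SE 0.17, adjusted p = 0.0335) and -0.56 for Iigp1 (limma, SE 0.14, adjusted p = 0.0163). Gbp3 was at 19.98 and 16.9 CPM in RH/+ vehicle, 13.9 and 10.7 CPM in RH/RQ vehicle and 16.3 and 13.5 CPM in treated RH/RQ libraries (chromosome 3, 142560026 to 142573209, plus strand), and its log2 fold change was -0.56 (limma, SE 0.15, adjusted p = 0.0282). Igtp overlaps Irgm2 on the same strand and shares 11.8% of its 50-base words with it, so its reads are uncertain to that extent.

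The first RH/+ vehicle library carried the highest value of the 6 for all 6 of these GTPases, whose summed level was 196.2 and 145.8 CPM in RH/+ vehicle, 130.8 and 115.8 CPM in RH/RQ vehicle and 129.1 and 122.9 CPM in treated RH/RQ libraries. In the same library, 5 T and NK cell markers summed to 5.33 CPM, against 3.21 CPM in the other RH/+ vehicle library, 3.14 and 3.09 CPM in RH/RQ vehicle and 4.19 and 2.61 CPM in treated RH/RQ libraries. None of the 5 was at 0 in any library, 0 of the 5 were called by limma, edgeR or DESeq2 between the vehicle groups, and 1 had an unadjusted p under 0.05. Of 10 listed interferon ligand genes only Ifng was in the tables, with 5 reads in the first RH/+ vehicle library and 0 in the other 5. The part of lymphocyte RNA in the GTPase levels was not tested. Without that library the GTPase median was -0.26, with 5 of 6 below 0, the log2 fold change of Igtp was -0.22 (limma adjusted p = 0.757) and that of Iigp1 -0.31 (limma adjusted p = 0.486).

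Among the other induced proteins, Ifi27 fell (chromosome 12, 103434211 to 103440239, plus strand). It was at 60.2 and 55.8 CPM in RH/+ vehicle, 43.4 and 36.0 CPM in RH/RQ vehicle and 67.2 and 55.4 CPM in treated RH/RQ libraries. The RH/RQ vehicle libraries lay below the 4 others, which overlapped. Its log2 fold change was -0.54 (limma, SE 0.11, adjusted p = 0.0047). Lgals3bp (chromosome 11, 118392751 to 118402092, minus strand) was at 31.2 and 42.9 CPM in RH/+ vehicle, 30.6 and 28.7 CPM in RH/RQ vehicle and 44.2 and 43.8 CPM in treated RH/RQ libraries, and its log2 fold change of -0.30 did not pass (limma, SE 0.12, adjusted p = 0.205). Ifi35 and Ifi44 did not pass.

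The sensors, the transcription factors, the ADP-ribosyltransferases and the IFIT proteins had 0 calls by limma among 12 genes between RH/RQ vehicle and RH/+ vehicle, 0 by edgeR and 0 by DESeq2, and 2 genes had an unadjusted p under 0.05. Ddx58, the RIG-I sensor of RNA with a triphosphate end, was at 17.3 and 21.0 CPM in RH/+ vehicle, 20.5 and 15.8 CPM in RH/RQ vehicle and 18.7 and 21.1 CPM in treated RH/RQ libraries. All groups overlapped, and the log2 fold change was -0.08 (limma, SE 0.14, adjusted p = 0.845). Ifih1, the MDA5 sensor of long double-stranded RNA, was at 9.90 and 10.2 CPM in RH/RQ vehicle libraries, below the 12.1 to 14.2 CPM of the other 4, with a log2 fold change of -0.35 that did not pass (limma, SE 0.14, adjusted p = 0.19). Irf1, a transcription factor induced mainly by interferon gamma, was at 25.2 and 20.6 CPM in RH/+ vehicle, 25.3 and 21.1 CPM in RH/RQ vehicle and 22.4 and 17.4 CPM in treated RH/RQ libraries, with a log2 fold change of 0.02 (limma, SE 0.14, adjusted p = 0.968). Irf7 and Stat2, which act in type I responses, had log2 fold changes of -0.29 and -0.02 (limma adjusted p = 0.296 and 0.96). Parp9, an ADP-ribosyltransferase that works with the ligase Dtx3l, was at 27.9 and 24.4 CPM in RH/+ vehicle, 27.8 and 25.9 CPM in RH/RQ vehicle and 29.8 and 28.0 CPM in treated RH/RQ libraries, and its log2 fold change was 0.04 (limma, SE 0.11, adjusted p = 0.919). Parp9 and Dtx3l overlap by 682 bases on opposite strands, and reads from the overlap cannot be assigned without the strand setting. Ifit3, which binds viral RNA in a complex with other IFIT proteins, was at 16.0 and 13.3 CPM in RH/+ vehicle, 10.6 and 11.5 CPM in RH/RQ vehicle and 14.2 and 14.9 CPM in treated RH/RQ libraries. It was lowest in both RH/RQ vehicle libraries, with a log2 fold change of -0.38 that did not pass (limma, SE 0.14, adjusted p = 0.136). Ifit3 and Ifit3b share 51.2% of the 50-base words of Ifit3, so reads between them are uncertain.

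Leaving out the first RH/+ vehicle library left Usp18 and Oas2 called and added Lgals3bp (limma adjusted p = 0.0384), and leaving out the second RH/RQ vehicle library left Usp18 alone. Oasl2 was also lost without the second RH/+ vehicle library (limma adjusted p = 0.12) and Igtp without the first RH/RQ vehicle library (limma adjusted p = 0.0736). The call of Rsad2 was lost without any of the 4 libraries (limma adjusted p = 0.0761 to 0.357) and with edgeR (adjusted p = 0.0507), and Igtp was not called by DESeq2 (adjusted p = 0.195). On the lower side edgeR called 9 members, the 7 of limma with Bst2 and Gbp2, and DESeq2 called 8, which were Bst2, Gbp2 and 6 of the 7. The shares of all tested genes that edgeR and DESeq2 called are not reported here, so these counts have no background beside them. Markers of other cells moved with this comparison. Limma called 3 of 4 fibroblast markers higher in RH/RQ vehicle, and the 4 summed to 736 and 779 CPM in RH/+ vehicle, 1250 and 1130 CPM in RH/RQ vehicle and 1290 and 1100 CPM in treated RH/RQ libraries. It also called 2 of 6 macrophage and monocyte markers higher there, and the 6 summed to 118 CPM in each RH/+ vehicle library, 153 and 148 CPM in RH/RQ vehicle and 141 and 122 CPM in treated RH/RQ libraries. Of these calls, Adgre1 was lost without any 1 of the 4 vehicle libraries (limma adjusted p = 0.0862 to 0.274) and Dcn without the first RH/RQ vehicle library (limma adjusted p = 0.0566). The 3 neutrophil markers tested all lay below 0, with a median log2 fold change of -0.43. They summed to 5.93 and 4.31 CPM in RH/+ vehicle and 2.84 and 2.5 CPM in RH/RQ vehicle libraries. Limma called 0 of the 3, edgeR 1 and DESeq2 1. Of 5 cardiomyocyte markers, with a median of -0.03, limma called 0, edgeR 1 and DESeq2 2. None of the fibroblast, macrophage and monocyte or neutrophil markers was at 0 in any library. The part of all these cell types in the interferon gene levels was not tested. In the deposited table of the authors, 7 members had an adjusted p under 0.05, all lower: Usp18, Oas2, Oasl2, Gbp3 and Ifi27, which are also on the authors' short list of 427 genes, and Bst2 and Gbp2.

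**Figure D3:**
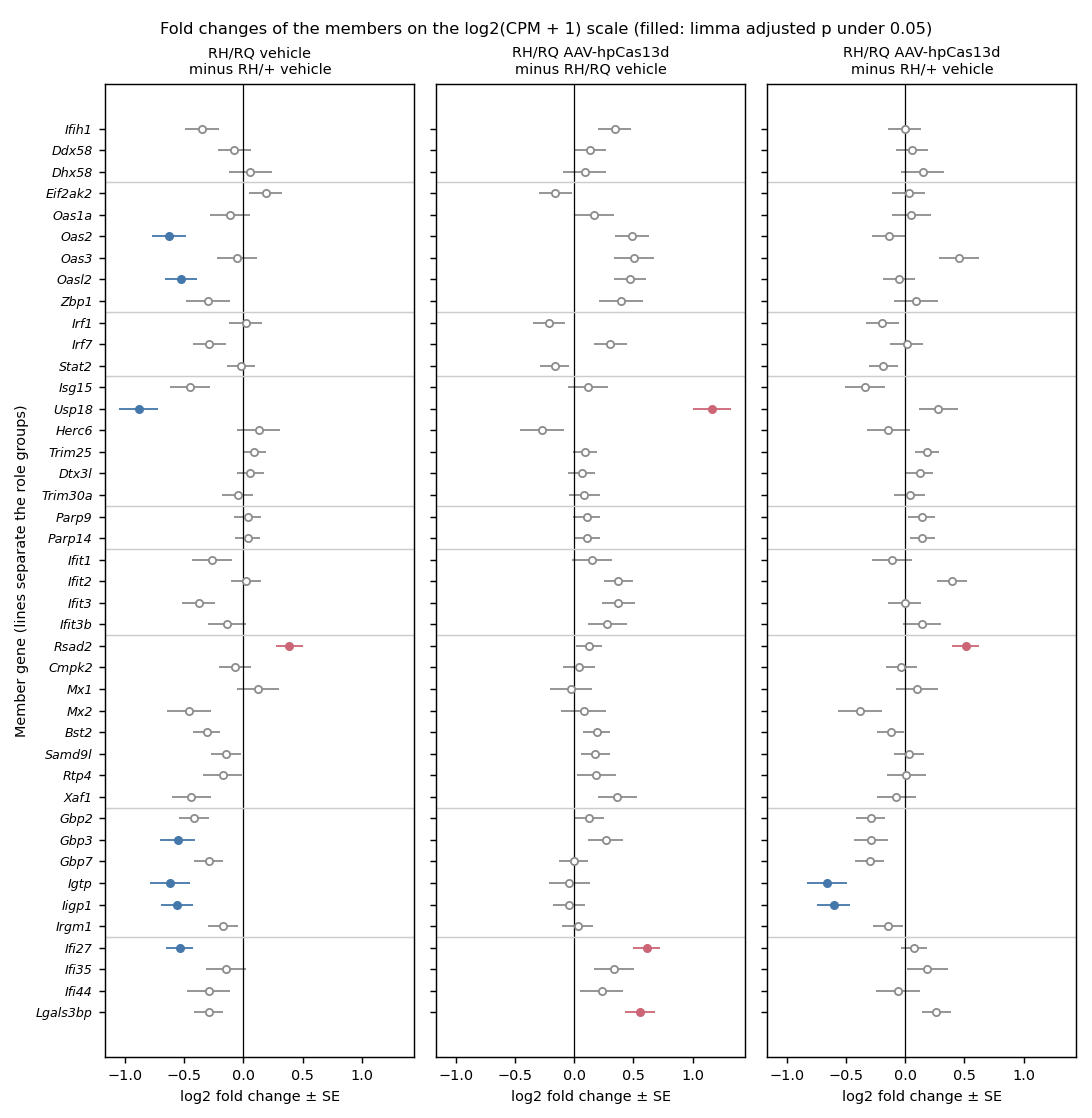
Log2 fold changes on the log2(CPM + 1) scale with their standard errors for the 42 members in the 3 comparisons, filled where the limma adjusted p was under 0.05 (blue lower, red higher) and open otherwise; grey lines separate the role groups. Usp18 has the lowest value in the left panel (-0.89) and the highest in the middle panel (1.17), and Igtp and Iigp1 are the filled points on the lower side in the right panel.

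Treated RH/RQ hearts were set beside RH/RQ vehicle hearts to see how the virus went with these genes a year after the dose. Usp18, Ifi27 and Lgals3bp rose. No member was called lower, and most members lay slightly above the vehicle level. Limma called 3 of 42 members higher (1.22% of all tested genes were called higher) and 0 lower (0.827% of all tested genes), with 39 not passing. For the lower side edgeR and DESeq2 also called 0, and 0 reached an unadjusted p under 0.05. An unadjusted p under 0.05 was reached by 12 members on the higher side, against 12.5% of all tested genes in either direction. Log2 fold changes were above 0 for 34 of the 42, where 39.4% of all tested genes lay below 0, and the median was 0.14 against 0.04 over all tested genes. Both treated libraries were higher than both vehicle libraries for 18 members (26.2% of all tested genes) and lower for 0 (14.4% of all tested genes). These comparisons share the RH/RQ vehicle libraries with the one above, so a low value there enters both.

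Usp18 had the largest log2 fold change of the members on the log2(CPM + 1) scale in this comparison. It went from 3.88 ± 0.607 to 9.91 ± 0.18 CPM (SD, n = 2 each), with a 2.55-fold ratio of means and a log2 fold change of 1.17 (limma, SE 0.16, adjusted p = 0.000122). Ifi27 went from 39.7 ± 5.25 to 61.3 ± 8.4 CPM (SD, n = 2 each), with a log2 fold change of 0.61 (limma, SE 0.11, adjusted p = 0.00285). Lgals3bp went from 29.6 ± 1.35 to 44.0 ± 0.304 CPM (SD, n = 2 each), with a log2 fold change of 0.56 (limma, SE 0.12, adjusted p = 0.015). In each of the 3 genes both treated libraries lay above both vehicle libraries. Usp18 and Ifi27 are the genes of this trio that were called lower in RH/RQ vehicle against RH/+ vehicle, a comparison that uses the same vehicle libraries.

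The RNA sensors did not pass: Ddx58 had a log2 fold change of 0.13, Ifih1 of 0.34 and Dhx58, the sensor LGP2 that tunes the other sensors, of 0.09, with limma adjusted p = 0.765, 0.308 and 0.901. Of the 6 double-stranded RNA and nucleic acid effectors, 5 were higher in both treated libraries than in both vehicle libraries (26.2% of all tested genes). Their median was 0.43, but limma, edgeR and DESeq2 called 0 of the 6, and 4 had an unadjusted p under 0.05. Oas2 had a log2 fold change of 0.49 (limma, SE 0.15, adjusted p = 0.095) and Oasl2 of 0.47 (limma, SE 0.14, adjusted p = 0.08). Oas3 was counted at 8 and 20 reads in RH/+ vehicle, 19 and 9 reads in RH/RQ vehicle and 27 and 36 reads in treated RH/RQ libraries, so that its 2.80-fold ratio of mean CPM, above that of Usp18, and its log2 fold change of 0.50 rest on few reads (limma, SE 0.17, adjusted p = 0.159). The 4 IFIT genes were all above 0 with a median of 0.32, and Ifit2, at 24.4 and 31.1 CPM in treated libraries against 20.6 to 21.3 CPM in the other 4, had a log2 fold change of 0.37 (limma, SE 0.13, adjusted p = 0.161). The 6 GTPases split evenly, with 3 below and 3 above 0 and a median of 0.01: Igtp was at -0.04 (limma adjusted p = 0.954), Iigp1 at -0.05 (limma adjusted p = 0.933) and Gbp3 at 0.26 (limma adjusted p = 0.495). Rsad2 had a log2 fold change of 0.12 (limma adjusted p = 0.721).

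Without the second RH/RQ vehicle library, which was the lowest of the 6 for 24 members, Usp18 was the only member called, with limma adjusted p = 0.0863 for Ifi27 and 0.118 for Lgals3bp, and without the first one Oas2 (limma adjusted p = 0.000534) and Xaf1 were also called. Lgals3bp was not called without the first treated library (limma adjusted p = 0.0623), and Oas2 was called without the first RH/+ vehicle library, which is in the same fit but in neither group compared (limma adjusted p = 0.0486). Neutrophil markers moved with this comparison: 2 of the 3 in the tables, S100a8 and S100a9, were called higher (limma adjusted p = 0.0208 and 0.000522), the 3 summed to 9.4 and 7.12 CPM in treated RH/RQ, 2.84 and 2.5 CPM in RH/RQ vehicle and 5.93 and 4.31 CPM in RH/+ vehicle libraries, none was at 0, and their part in the interferon gene levels was not tested. Of the 6 macrophage and monocyte markers, 5 lay below 0, with a median log2 fold change of -0.16. Limma called 0 of these 6, edgeR 1 and DESeq2 1. They summed to 141 and 122 CPM in treated RH/RQ and 153 and 148 CPM in RH/RQ vehicle libraries, and their part was not tested. The 4 fibroblast markers had a median log2 fold change of 0.07, and only Col1a1 lay below 0. Col1a1, a collagen gene, was lower in treated than in vehicle RH/RQ (log2 fold change -1.17, limma adjusted p = 9.21e-07). So was Jchain, 1 of 4 B and plasma cell markers (log2 fold change -0.71, limma adjusted p = 0.0482; 0.0865 by edgeR and 0.118 by DESeq2), a call lost without either RH/RQ vehicle library or the first treated library (limma adjusted p = 0.052, 0.404 and 0.276). Of the 4 B and plasma cell markers only Jchain lay below 0, with a median log2 fold change of 0.25 over the 4. An unadjusted limma p under 0.05 was reached by 3 of the 4. These 4 markers summed to 3.33 to 4.55 CPM over the 6 libraries, and none was at 0. The part of fibroblasts and of B and plasma cells was not tested. S100a8 was not called without the first RH/RQ vehicle library (limma adjusted p = 0.17) or the first treated library (limma adjusted p = 0.109). In the authors' deposited table Usp18, Ifi27 and Lgals3bp had adjusted p under 0.05, all higher, and Usp18 alone of the members was on the authors' short list of 185 genes.

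Treated RH/RQ hearts were also set beside RH/+ vehicle hearts, the groups that share the sex-linked pattern. These groups differ in both genotype and treatment, which cannot be told apart here. Igtp and Iigp1 fell and Rsad2 rose, while Usp18, Ifi27, Oas2 and Oasl2, the other genes called lower in RH/RQ vehicle except Gbp3, had log2 fold changes between -0.14 and 0.28 that did not pass. Limma called 2 of 42 members lower (0.53% of all tested genes were called lower) and 1 higher (2.33% of all tested genes), with 39 not passing. An unadjusted p under 0.05 was reached by 4 members on each side, against 15.1% of all tested genes. Log2 fold changes were below 0 for 20 members and above 0 for 22, with a median of 0.01, where 30.3% of all tested genes lay below 0 and their median was 0.08. With TMM factors 28 of the 42 lay below 0 and the median was -0.09. Both treated libraries were lower than both RH/+ vehicle libraries for 11 members (9.66% of all tested genes) and higher for 10 (35% of all tested genes).

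Igtp had a log2 fold change of -0.67 (limma, SE 0.17, adjusted p = 0.0319) and Iigp1 of -0.61 (limma, SE 0.14, adjusted p = 0.0137). All 6 GTPases lay below 0, with a median of -0.30. For 5 of 6 both treated libraries were below both RH/+ vehicle libraries (9.66% of all tested genes). Gbp3 had a log2 fold change of -0.29 (limma adjusted p = 0.358). Without the first RH/+ vehicle library the values were -0.26 for Igtp (limma adjusted p = 0.742) and -0.35 for Iigp1 (limma adjusted p = 0.452), and the GTPase median was -0.21 with 5 of 6 below 0. Of the 5 T and NK cell markers, 3 lay below 0 in the same comparison, and the median log2 fold change was -0.04. Only Cd8a was called, with a log2 fold change of -0.75 (limma adjusted p = 0.0305). EdgeR and DESeq2 also called Cd8a (adjusted p = 0.0359 and 0.0342), but limma lost the call with a filter at a mean of at least 1 CPM (limma adjusted p = 0.0572). Its log2 fold change was -0.50 without the first RH/+ vehicle library. It was -0.83 and -0.68 without the first or the second treated library. The part of these markers was not tested. All 4 fibroblast markers were called higher by limma in this comparison, Dcn with a log2 fold change of 0.69, Lum of 0.59, Col1a1 of 0.51 and Pdgfra of 0.43 (limma adjusted p = 0.000484, 0.000743, 0.0151 and 0.0182), and their part was not tested. Of the 4, edgeR and DESeq2 each called 2, Dcn and Lum, and Col1a1 and Pdgfra were not called by limma without the first RH/+ vehicle library (limma adjusted p = 0.269 and 0.293) or the first treated library (limma adjusted p = 0.161 and 0.0871).

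Rsad2 had a log2 fold change of 0.51 (limma, SE 0.11, adjusted p = 0.0113), and both treated libraries were above both RH/+ vehicle libraries. Usp18, with no overlap between the groups, had a log2 fold change of 0.28 (limma, SE 0.16, adjusted p = 0.447), Ifi27 of 0.07 (limma, SE 0.11, adjusted p = 0.818) and Lgals3bp of 0.26 (limma, SE 0.12, adjusted p = 0.321). Oas2 was at -0.14 (limma, SE 0.15, adjusted p = 0.705) and Oasl2 at -0.05 (limma, SE 0.14, adjusted p = 0.9). The RNA sensors overlapped in all 3 genes, with log2 fold changes of 0.06 for Ddx58, -0.01 for Ifih1 and 0.15 for Dhx58 (limma adjusted p = 0.899, 0.988 and 0.762). A p above the threshold with 2 libraries a group does not show that the levels are alike.

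Rsad2 was not called without the first RH/+ vehicle library (limma adjusted p = 0.159) or the first treated library (limma adjusted p = 0.0842), and Iigp1 was not called without either of these (limma adjusted p = 0.452 and 0.0814). Igtp lost its call in addition without the second treated library (limma adjusted p = 0.101) and with DESeq2 (adjusted p = 0.202), and in the authors' deposited table Iigp1 was the only member with an adjusted p under 0.05 and the only one on the short list of 194 genes.

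Single libraries carried much of the pattern over the members. The second RH/RQ vehicle library was the lowest of the 6 for 24 of 42 members (57.1%, against 24.9% of all tested genes), among them 4 of the 4 other induced proteins, 5 of 8 antiviral effectors, 4 of 6 double-stranded RNA and nucleic acid effectors and 4 of 6 GTPases. The first RH/+ vehicle library was the highest for 12 members (28.6%, against 10.6% of all tested genes), of which 6 are the GTPases. The first treated library was the highest for 13 members (31%, against 32.3% of all tested genes). With TMM factors, which scale each library by most of its genes, the second RH/RQ vehicle library was the lowest for 17 members (40.5%, against 18.3% of all tested genes) and the first RH/+ vehicle library the highest for 20 (47.6%, against 18.1%). The 42 members together took 831.8 and 777.6 CPM in RH/+ vehicle, 736.7 and 646 CPM in RH/RQ vehicle and 808.9 and 776.9 CPM in treated RH/RQ libraries. The second RH/RQ vehicle library was the lowest in this sum, and the first RH/RQ vehicle library the next lowest.

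**Figure D4:**
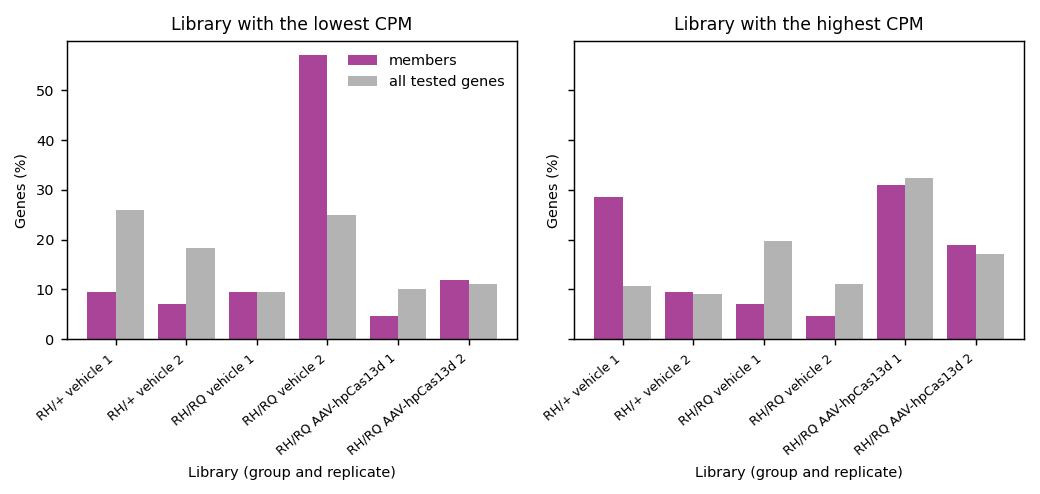
Share of genes (%) that have their lowest (left) or highest (right) CPM in each of the 6 libraries, for the 42 members (purple) and all 16804 tested genes (grey). The second RH/RQ vehicle library held the lowest value for 57.1% of members against 24.9% of tested genes, and the first RH/+ vehicle library the highest for 28.6% against 10.6%.

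Genes of the same pathway outside the 43 were read from lists of ligands, receptors and kinases, sensing adaptors, feedback inhibitors and other induced genes. Of 9 receptor and kinase genes, Il10rb, a receptor chain shared by the interleukin-10 and lambda interferon receptors, was lower in RH/RQ vehicle than in RH/+ vehicle, at 93.2 and 91.7 CPM in RH/+ vehicle, 72.6 and 68.2 CPM in RH/RQ vehicle and 88.6 and 81.0 CPM in treated RH/RQ libraries (log2 fold change -0.39, limma adjusted p = 0.0147). Ifngr1, the ligand-binding chain of the interferon gamma receptor, was higher in treated RH/RQ than in RH/+ vehicle, at 50.9 and 50.2 CPM in RH/+ vehicle, 60.9 and 56.8 CPM in RH/RQ vehicle and 72.8 and 62.9 CPM in treated RH/RQ libraries (log2 fold change 0.41, limma adjusted p = 0.0231; 0.106 with TMM factors). Of 16 sensing and adaptor genes tested, Traf3, an adaptor between RNA sensors and the kinases that activate IRF3, was higher in RH/RQ vehicle than in RH/+ vehicle, at 24.0 and 31.0 CPM in RH/+ vehicle, 38.8 and 38.6 CPM in RH/RQ vehicle and 37.1 and 34.8 CPM in treated RH/RQ libraries (log2 fold change 0.49, limma adjusted p = 0.0144). Il10rb was not called without the first RH/+, the second RH/+ or the second RH/RQ vehicle library (limma adjusted p = 0.162, 0.0942 and 0.161) and stayed called without the first RH/RQ vehicle library (limma adjusted p = 0.0489). Ifngr1 was not called without either RH/+ vehicle library (limma adjusted p = 0.166 and 0.142) or the first treated library (limma adjusted p = 0.183). Traf3 was not called without the first RH/+ vehicle library (limma adjusted p = 0.43) or either RH/RQ vehicle library (limma adjusted p = 0.0701 and 0.0655). Limma called no other receptor, kinase, sensing or adaptor gene of these lists in the 3 comparisons. Among 9 feedback inhibitors limma, edgeR and DESeq2 called 0 in each comparison, and an unadjusted p under 0.05 was reached by 1 gene between treated RH/RQ and RH/+ vehicle and by 0 in both other comparisons.

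Of 49 other induced genes, limma called 3 lower and 1 higher in RH/RQ vehicle than in RH/+ vehicle. Of all tested genes, limma called 1.51% lower and 3.48% higher there. EdgeR and DESeq2 called 6 and 5 of the 49, and their shares of all tested genes are not reported here. Between treated and vehicle RH/RQ, 0 were called (0 by edgeR and DESeq2, 9 with an unadjusted p under 0.05). Of all tested genes, 0.827% were lower and 1.22% higher there. In treated RH/RQ against RH/+ vehicle, 1 was lower (0.53% of all tested genes) and 1 higher (2.33% of all tested genes). In that comparison edgeR and DESeq2 each called 4, again without their shares of all tested genes beside them. The lower ones belong to the same GTPase families as Gbp3 and Igtp. Of these, Irgm2 overlaps Igtp on the same strand, and 11.8% of the 50-base words of Igtp also occur in it. Reads between Irgm2 and Igtp are uncertain to that extent. Irgm2 was at 42.3 and 34.2 CPM in RH/+ vehicle, 27.1 and 21.6 CPM in RH/RQ vehicle and 28.3 and 27.3 CPM in treated RH/RQ libraries, with a log2 fold change of -0.63 between the vehicle groups (limma adjusted p = 0.00285). Gbp5 was at 20.4 and 16.7 CPM in RH/+ vehicle, 12.6 and 9.31 CPM in RH/RQ vehicle and 12.4 and 12.6 CPM in treated RH/RQ libraries, with a log2 fold change of -0.72 (limma adjusted p = 0.00468). Gbp4 was at 35.7 and 29.7 CPM in RH/+ vehicle, 26.7 and 20.8 CPM in RH/RQ vehicle and 19.4 and 20.1 CPM in treated RH/RQ libraries, and was called lower in RH/RQ vehicle (log2 fold change -0.45, limma adjusted p = 0.0444) and in treated RH/RQ (log2 fold change -0.69, limma adjusted p = 0.00273), both against RH/+ vehicle. In all 3 genes both RH/+ vehicle libraries lay above the other 4. Without the first RH/+ vehicle library, limma adjusted p was 0.116 for Irgm2, 0.128 for Gbp5, 0.506 for Gbp4 in RH/RQ vehicle and 0.0915 for Gbp4 in treated RH/RQ. Without the second RH/RQ vehicle library it was 0.0731 for Irgm2, 0.11 for Gbp5 and 0.455 for Gbp4. Ifi205, a member of the DNA-binding p200 family, was higher in RH/RQ vehicle than in RH/+ vehicle (log2 fold change 0.63, limma adjusted p = 0.022; 0.106, 0.128 and 0.208 without the first RH/+, the second RH/+ or the first RH/RQ vehicle library). Psmb10, a subunit of the immunoproteasome, was higher in treated RH/RQ than in RH/+ vehicle (log2 fold change 0.42, limma adjusted p = 0.034; 0.139 with TMM factors). Without the first RH/+ vehicle, the second RH/+ vehicle or the first treated library, limma adjusted p for Psmb10 was 0.212, 0.134 and 0.326.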

How the data were processed

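Poly(A) RNA of 6 heart samples was sequenced. HISAT2, HTSeq, DESeq2 and mm10 are named in the submitters' processing notes; versions, annotation and strand setting are not given in the sources used here, and overlapping genes may share reads. The 3 full tables and 3 shorter lists that the authors deposited give CPM per library, gene reads scaled to a library total of 1000000. Per the file headers the deposited tables also hold a mean normalised signal, log2 fold changes and their errors, scores of the test, p-values and adjusted p-values. These are cited as the authors'. Every CPM value was a whole multiple of 1 read (100.0% of values, tolerance 0.001), so reads were recovered; 0 sample columns were left unused.

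The 3 tables were joined. Limma 3.58.1 (R 4.3.3) with a trend was fitted to log2(CPM + 1) of all 6 libraries with 3 group means, two-sided, for genes kept by filterByExpr at a minimum count of 10. P-values were adjusted by Benjamini-Hochberg over every gene tested. The pseudocount of 1 CPM understates the change of low genes. Alternatives were edgeR 4.0.16 and DESeq2 1.42.0 on recovered reads, other scalings, filters and pseudocounts, a replicate block and leaving out each library. The tests were tried on simulated reads. RPKM divides CPM by the annotated exon length in GENCODE M21. Groups came from the genotype and treatment labels.

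The members and lists were chosen with earlier results of these data known, so no test over the list is given. Values in every library are given for members called in any comparison, for the member with the highest RPKM in each role group, and for the 3 members with the widest gap between libraries of a group; Isg15, Ifih1, Ifit2, Oas3 and Cmpk2 were added after their values were seen. The effect of the alternatives on role groups and on genes outside the 43, and the order of libraries with TMM factors, were also computed after the data were seen. Some results of the pathway lists are not reported here.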

Additional observations from a re-analysis of the deposited data

How the results depend on the processing

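The 9 values given for the members (calls lower, calls higher and the median log2 fold change in each of the 3 comparisons) gave no called member in the opposite direction under any alternative, and the median changed sign in 1 comparison. The median for treated RH/RQ against RH/+ vehicle, 0.01, became -0.09 with edgeR (-0.0909), DESeq2 (-0.0936), RLE factors (-0.0895) and TMM factors (-0.0871), while the median of all genes moved from 0.08 to -0.002 with TMM factors. The median for RH/RQ vehicle against RH/+ vehicle, -0.18, became -0.25 with edgeR (-0.2539) and -0.26 with DESeq2 (-0.2616), and ranged from -0.2985 to -0.0968 when each library was left out. The median for treated against vehicle RH/RQ ranged from 0.0613 to 0.2096 when each library was left out.

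Without a filter on low genes limma called 0 members in any comparison, against 7, 1, 3, 2 and 1; the cause was not tested. The 1 member called higher in RH/RQ vehicle became 0 with edgeR, a pseudocount of 5, RLE factors and TMM factors, and 0 to 1 without single libraries. The 2 called lower in treated RH/RQ against RH/+ vehicle became 1 with DESeq2 and 1 with a pseudocount of 5, and 0 to 2 without single libraries. The 1 called higher there ranged from 0 to 1. The 7 called lower in RH/RQ vehicle ranged from 1 to 8 without single libraries, and were 9 with edgeR and 8 with DESeq2. The 3 called higher between treated and vehicle RH/RQ ranged from 1 to 5. With the replicate block, taken from the leading digit of the sample titles, 5 were called, Oas2 and Oasl2 in addition. The deviations of same-numbered libraries correlated at 0.13, -0.02 and 0.074 over genes, so the numbers were not taken as pairs.

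Over all tested genes, calls lower and higher were 253 and 585, 139 and 205, and 89 and 391 between the vehicle groups, between the RH/RQ groups, and between treated RH/RQ and RH/+ vehicle hearts. With TMM factors they were 404 and 527, 196 and 172, and 164 and 237. Usp18 kept both calls under every alternative run except no filter (limma adjusted p = 0.116). Each of the other 8 called members lost its calls without at least 1 library. Members such as Oas3, Mx1 and Zbp1 have few reads, and a pseudocount of 1 CPM shrinks their differences.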

Other observations

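Cxcl9, a chemokine that interferon gamma induces strongly, was chosen after its values were seen. It was at 9.06 and 4.56 CPM in RH/+ vehicle, 3.78 and 3.45 CPM in RH/RQ vehicle and 4.74 and 4.38 CPM in treated RH/RQ libraries, and it passed no comparison (log2 fold change -0.70, limma adjusted p = 0.0588, between the vehicle groups). The first RH/+ vehicle library stood above the other 5, which lay within 3.45 to 4.74 CPM. Cxcl10, its relative, had no such order: it was at 1.995 and 0.426 CPM in RH/+ vehicle, 1.04 and 1.78 CPM in RH/RQ vehicle and 0.662 and 0.896 CPM in treated RH/RQ libraries.

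Of 4 plasmacytoid dendritic cell markers, Tcf4, a transcription factor gene also used by many other cell types, was at 128.7 to 160.3 CPM and passed no comparison by limma. The other 3 were too low to be tested: Siglech lay between 0.0788 and 0.524 CPM, Ccr9 between 0.098 and 0.263 CPM, and Klk1 was at 0 reads in 4 libraries and at 1 read in each RH/RQ vehicle library.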
